A study of Mus musculus with 17 samples.

Results

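Hair follicle stem cells (HFSCs) from follicles in the 2nd telogen were set against HFSCs from mice fed ad libitum, with 2 messenger RNA libraries in each group. These are 4 of the 17 libraries of a study of stem cells sorted from mouse skin, in which wild-type mice were fed ad libitum, fasted briefly, or kept long-term on alternate-day fasting or ad libitum feeding. All 4 libraries are columns of one deposited table of TPM values, a level scaled for transcript length and sequencing yield. Of its 35674 gene symbols, 11909 had a mean of at least 1 TPM over the 4 libraries once mitochondrially encoded genes were removed, and these were tested. The nearest gene inside that limit was Slc5a3, with a mean of 1.0012 TPM, and the nearest outside it was Mtss1l, with 0.99986 TPM.

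The 2nd telogen HFSCs are labelled skin, WT and Control, and their feeding is not described further. The ad libitum HFSCs are labelled skin, WT and Ad libitum, and carry the prefix ana1 in the table, whose meaning is not given in the labels. Age, sex, strain and the surface markers of the sort are not given there for either group. The ad libitum libraries are those numbered 2 and 3 of the short fasting experiment, and their values equal those of that experiment's own table within 1e-06 TPM at all 35674 symbols. The telogen columns are numbered 2 and 3 while the sample titles are numbered 1 and 2, so the columns stand here under their own numbers, and library 2 is given before library 3 in each group. No label says that the libraries of a group came from separate mice, so the p-values measure the spread between these libraries, which may be technical. The telogen libraries belong to a separate experiment with its own read trimming, and hair cycle stage, diet history, experiment and processing cannot be told apart.

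HFSCs live in the bulge, the lowest permanent part of the follicle. The follicle cycles through growth (anagen), regression (catagen) and rest (telogen). In telogen the bulge is held quiescent by bone morphogenetic proteins (BMPs) and by Fgf18 made in the bulge itself, and the 2nd telogen of the mouse is known as a long rest. Wnt and hedgehog signals and inhibitors of BMP end the rest by activating the hair germ beneath the bulge.

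Markers of HFSCs were present in all 4 libraries, but not all of them set HFSCs apart from epidermal stem cells (EpiSCs). Cd34, the surface protein of mouse bulge cells, had 1343 and 585 TPM in telogen HFSCs and 776 and 519 TPM in ad libitum HFSCs, against 0.113 and 0.511 TPM in the EpiSCs of the short experiment. Lgr5, Sox9, Lhx2 and Nfatc1 were also lower in EpiSCs than in each of the 4 libraries. Krt15 was not, with 35123 and 35451 TPM in EpiSCs, and Itga6, Krt5 and Krt14 were higher in EpiSCs than in each of the 4. Correlations of log2 levels across genes were 0.955 within the telogen pair, 0.935 within the ad libitum pair and 0.874 to 0.900 between the groups. Mitochondrially encoded genes took 3.50% and 3.42% of TPM in telogen HFSCs and 25.4% and 32.7% in ad libitum HFSCs, and were removed before each library was rescaled to the same total. Of 10 lists of markers of other cell types, 3 held a gene that passed the test below, and each is given beside its values. Endothelial and adipocyte markers stayed below the 1 TPM limit. Ptprc, which defines leukocytes, and Itgam were among the 4 of 13 immune markers listed at 0 in all 4 libraries. The 13 summed to 17.9 and 21.9 TPM in telogen HFSCs, against 11.1 and 14.9 TPM in ad libitum HFSCs. In bulk libraries, fewer cells of a type and less RNA per cell cannot be told apart.

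Of the 11909 genes, 563 passed limma's moderated test at an adjusted p under 0.05, with 325 higher (2.73%) and 238 lower (2.00%) in telogen HFSCs. On this scale the median gene had a log2 fold change of -0.37, telogen minus ad libitum. Median-ratio scaling, which sets libraries by the ratio of their typical genes, moved that median to 0.03 and gave 611 higher (5.13%) and 166 lower (1.39%), so that 78.6% of calls were higher in telogen HFSCs, against 57.7% on the first scale. The median-ratio value is therefore given second for the main genes, a call lost on that scale is stated, and a gene is said to have risen or fallen where it passed on the first. With mitochondrially encoded genes kept, the median over 11618 genes was 0.03, so the sign and size of -0.37 depend on the scaling. List counts and medians below are to be read beside these shares and medians, and 1 or 2 calls say little of a list. Unadjusted counts of a list stand beside 2490 of all 11909 genes, in either direction. Of the 563, 379 passed in the same direction on the first scale, after median-ratio scaling, after correction for GC content and length, and with ad libitum library 1 of the short experiment added (271 higher and 108 lower). The test borrows its error from all genes, since each group has 2 libraries: with either telogen library left out limma called 0 genes, although 2923 (telogen 3 kept) and 1502 (telogen 2 kept) had an unadjusted p under 0.05, against 2490 with all 4. With no limit on low values it also called 0 genes, with 2583 at an unadjusted p under 0.05.

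Genes higher in telogen HFSCs were richer in G and C, with a median transcript GC content of 52.8%, against 46.5% for genes lower in them and 49.7% for the rest. Across genes the Spearman correlation of log2 fold change with GC content was 0.22. In the decile of genes with the least GC, 15 were higher and 68 lower, whereas in the decile with the most, 69 were higher and 13 lower. The part of GC content in any single gene's value was not tested, but named genes that lost their call after the correction are given as such.

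The largest increases were in Cebpb and Fosl1. Cebpb, a transcription factor of inflammation and of keratinocyte differentiation, had 951 and 796 TPM in telogen HFSCs, against 2.64 and 5.49 TPM in ad libitum HFSCs. Its log2 fold change was 7.49 ± 0.37 (SE, adjusted p = 1.79e-09), or 7.88 after median-ratio scaling. Cebpb lies on chromosome 2 at 167688915 to 167690418, plus strand, in GRCm38. Fosl1, an AP-1 subunit of the Fos family, had 699 and 501 TPM in telogen HFSCs, against 8.96 and 6.35 TPM in ad libitum HFSCs. That is a log2 fold change of 6.11 ± 0.35 (adjusted p = 1.1e-08), or 6.54 by median-ratio scaling.

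The other genes among the 12 largest increases were lower in level. Dusp5, a phosphatase that inactivates nuclear ERK, had 122 and 71.6 TPM in telogen HFSCs, against 2.10 and 0.518 TPM in ad libitum HFSCs (log2 fold change 5.44, median-ratio 5.79). Plaur, the urokinase receptor, had 68.4 and 46.9 TPM in telogen HFSCs, against 1.23 TPM in ad libitum library 3 and a listed 0 in library 2. Krt16, the keratin of stressed and wounded epidermis, had 156 and 79.2 TPM in telogen HFSCs, against 1.95 and 2.38 TPM in ad libitum HFSCs. Each of the 3 had under 3 TPM in both ad libitum libraries. Irf1, a transcription factor of the interferon response, had 125 and 102 TPM in telogen HFSCs, against 3.09 and 3.18 TPM in ad libitum HFSCs. Ccl2, the chemokine that draws monocytes, had 56.2 and 46.1 TPM in telogen HFSCs, against 1.42 and 0.626 TPM in ad libitum HFSCs. The kinase gene Plk3, the peptide hormone gene Adm, the ubiquitin ligase gene Siah2 and C2cd4b completed the set, with log2 fold changes of 5.34, 4.95, 4.64 and 4.63. Dock10, a guanine nucleotide exchange factor, had 14.3 and 43.6 TPM in telogen HFSCs and was listed at 0 in both ad libitum libraries. Dock10, Plaur, Siah2 and C2cd4b had a mean under 1 TPM in ad libitum HFSCs, so they reached the limit for testing only through telogen HFSCs.

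**Figure D1:**
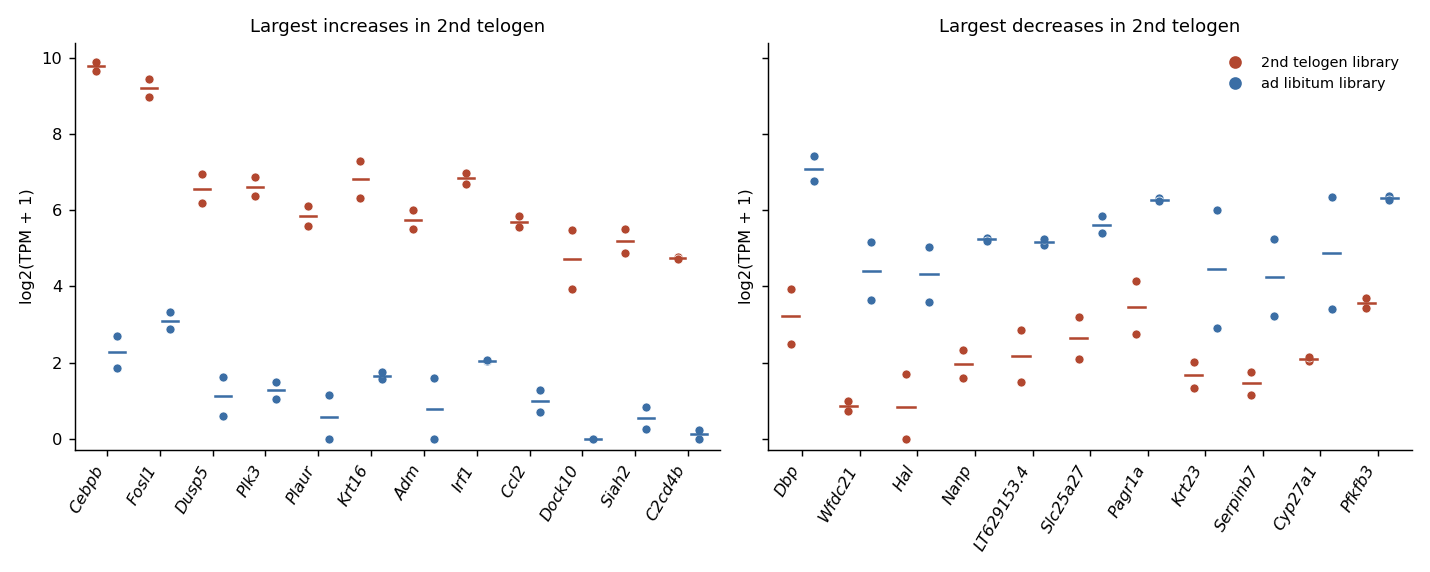
Level, as log2(TPM + 1), of the 12 genes with the largest increase (left) and 11 of the 12 with the largest decrease (right) in 2nd telogen HFSCs among genes past the threshold with a mean of 20 TPM or more in the higher group. Points are single libraries, short lines are means of 2 libraries, and each gene's telogen points stand left of its ad libitum points; the groups overlap at none of these genes because the choice required it.

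Among the largest decreases, Dbp, a clock-controlled transcription factor, had 14.2 and 4.66 TPM in telogen HFSCs, against 170 and 107 TPM in ad libitum HFSCs. It had the most negative log2 fold change of the set, -3.88 ± 0.47 (adjusted p = 5.88e-05), or -3.46 after median-ratio scaling. Pfkfb3, which makes the activator of phosphofructokinase and so speeds glycolysis, had 9.75 and 11.9 TPM in telogen HFSCs, against 81.8 and 76.2 TPM in ad libitum HFSCs. Ad libitum library 1 of the short experiment, which is not in the table tested, had 29.3 TPM of Pfkfb3, below the other ad libitum libraries but above both telogen libraries. Nanp, a phosphatase of sialic acid synthesis, had 4.02 and 2.02 TPM in telogen HFSCs, against 37.3 and 35.8 TPM in ad libitum HFSCs. In Cyp27a1, a sterol hydroxylase, and in Krt23, Serpinb7 and Wfdc21, the ad libitum libraries stood far apart: Cyp27a1 had 3.11 and 3.45 TPM in telogen HFSCs, against 9.68 and 79.7 TPM in ad libitum HFSCs. Wfdc21 had 0.657 and 1.01 TPM in telogen HFSCs, against 11.5 and 34.7 TPM in ad libitum HFSCs. Its mean in telogen HFSCs was 0.832 TPM, so it reached the limit of 1 TPM only through ad libitum HFSCs. Cyp27a1 and Krt23 did not pass after median-ratio scaling, and Cyp27a1, with 7.22 TPM in ad libitum library 1, did not pass with that library added (adjusted p = 0.112). Hal, which breaks down histidine, Slc25a27, Pagr1a and LT629153.4 were also in the set, with log2 fold changes of -3.47, -2.97, -2.82 and -3.0.

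Of 27 genes of bulge identity, all passed the limit on low values, 2 rose and 0 fell by limma (2 were lower at an unadjusted p under 0.05). Among all tested genes 2.73% were higher and 2.00% lower, so this count says little of the list. The list had a median log2 fold change of 0.23 beside -0.37 for all genes. Tbx1, a transcription factor of slow-cycling bulge cells, had 376 and 364 TPM in telogen HFSCs, against 177 and 123 TPM in ad libitum HFSCs (log2 fold change 1.32 ± 0.30, adjusted p = 0.0136, median-ratio 1.78), and lost its call after the GC correction. S100a4, a calcium-binding protein of bulge cells, had 6611 and 6161 TPM in telogen HFSCs, against 2504 and 3651 TPM in ad libitum HFSCs (log2 fold change 1.08, median-ratio 1.53), and did not pass after median-ratio scaling. The other 25 did not pass, and this does not show that they were equal. Krt15, the keratin used to mark the bulge, had 40719 and 30831 TPM in telogen HFSCs, against 53166 and 54755 TPM in ad libitum HFSCs. EpiSCs of the short experiment had 35123 and 35451 TPM of Krt15. Sox9, the transcription factor that specifies bulge cells, had 277 and 150 TPM in telogen HFSCs and 204 and 165 TPM in ad libitum HFSCs, so the groups overlapped. Overlap was also seen for Lgr5, a receptor of the Wnt pathway in the lower bulge and hair germ, with 127 and 62.3 TPM in telogen HFSCs and 91.3 and 47.5 TPM in ad libitum HFSCs. For Nfatc1, which represses the cell cycle in the bulge, telogen HFSCs had 135 and 50.8 TPM and ad libitum HFSCs 106 and 56.8 TPM. Lhx2, Tcf7l1 and Foxc1, transcription factors of the bulge, had log2 fold changes of 0.54, 0.58 and 0.72, with adjusted p = 0.37, 0.53 and 0.47.

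**Figure D2:**
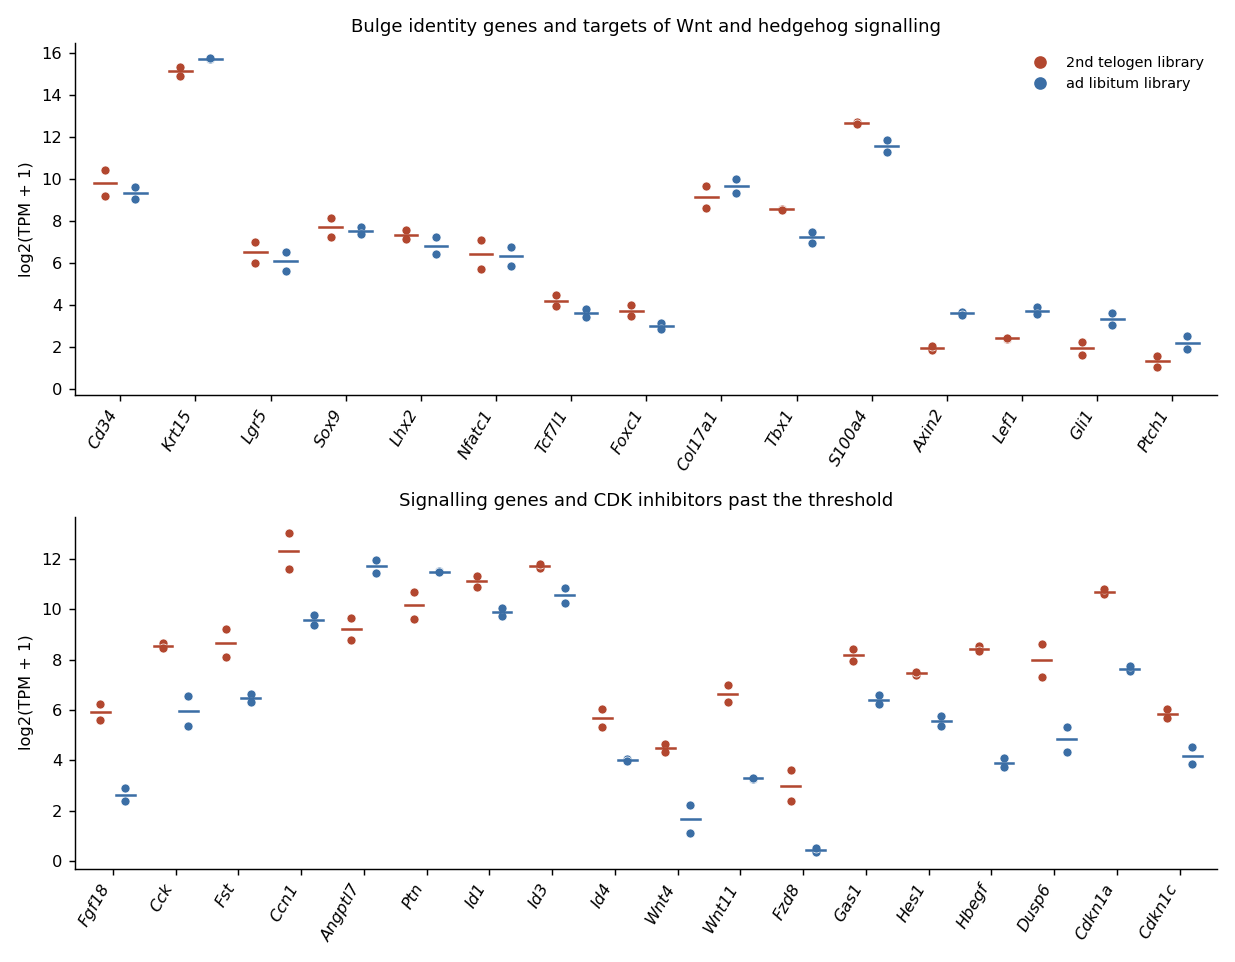
Level, as log2(TPM + 1), of bulge identity genes with Wnt and hedgehog targets (top) and of signalling genes and CDK inhibitors past the threshold (bottom), telogen points left of ad libitum points for each gene. Points are libraries and short lines the means of 2 libraries. Fgf18, Wnt11, Hbegf, Dusp6 and Cdkn1a are separated by more than 3 log2 units on average, and of the bulge genes drawn Tbx1 and S100a4 passed the test.

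Among secreted factors of the bulge, 27 of 28 were tested, 4 rose and 2 fell, with a median of -0.08 beside -0.37 for all genes. By median-ratio scaling 7 rose and 1 fell. Among all tested genes 2.73% were higher and 2.00% lower, or 5.13% and 1.39% after median-ratio scaling. Fgf18, the bulge's own quiescence signal, had 73.6 and 47.4 TPM in telogen HFSCs, against 6.55 and 4.18 TPM in ad libitum HFSCs. Its log2 fold change was 3.26 ± 0.48 (95% confidence interval 2.25 to 4.28, adjusted p = 0.000403), and 3.68 after median-ratio scaling. Fgf18 lies on chromosome 11 at 33117430 to 33147400, minus strand, in GRCm38. Cck, a neuropeptide hormone, had 400 and 348 TPM in telogen HFSCs, against 92.2 and 40.5 TPM in ad libitum HFSCs. Ccn1, a matricellular protein, had 8402 and 3102 TPM in telogen HFSCs, against 874 and 656 TPM in ad libitum HFSCs. In both genes each telogen library stood above each ad libitum library, as in 12.3% of all tested genes. Angptl7, a secreted angiopoietin-like protein of the bulge, fell to 811 and 433 TPM in telogen HFSCs, against 3946 and 2785 TPM in ad libitum HFSCs (log2 fold change -2.48, median-ratio -2.03). Ad libitum library 1 of the short experiment had 1484 TPM of Angptl7, below the other ad libitum libraries, and the call held with it added (log2 fold change -2.10). HFSCs of the long-term ad libitum mice had 1120 and 684 TPM. Ptn, a heparin-binding growth factor, had 1634 and 787 TPM in telogen HFSCs, against 2884 and 2809 TPM in ad libitum HFSCs (log2 fold change -1.33), and did not pass after median-ratio scaling.

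In the BMP pathway 4 of 33 tested members rose and 0 fell by limma (3 were lower at an unadjusted p under 0.05), with a median of 0.04, and 6 rose by median-ratio scaling. Id1 and Id3, target genes of BMP signalling that block differentiation factors, were among them. Id1 had 1893 and 2558 TPM in telogen HFSCs, against 856 and 1062 TPM in ad libitum HFSCs (log2 fold change 1.21 ± 0.28, adjusted p = 0.0155, median-ratio 1.66). Id3 had 3131 and 3490 TPM in telogen HFSCs, against 1219 and 1818 TPM in ad libitum HFSCs (log2 fold change 1.15, median-ratio 1.61). Both lay above the ad libitum range in both telogen libraries, as did 12.3% of all tested genes, but neither passed after median-ratio scaling. Id4, of the same family, had 64.6 and 39.5 TPM in telogen HFSCs, against 15.5 and 14.5 TPM in ad libitum HFSCs, and passed on both scales. Id2 did not pass, with 1304 and 925 TPM in telogen HFSCs and 1286 and 1264 TPM in ad libitum HFSCs. The fourth member that rose acts the other way: Fst, the extracellular inhibitor follistatin, had 598 and 271 TPM in telogen HFSCs, against 97.3 and 79.4 TPM in ad libitum HFSCs (log2 fold change 2.18, median-ratio 2.64). Of the ligands, Bmp6, made by the bulge, had 2.65 and 3.86 TPM in telogen HFSCs and 0.572 TPM and a listed 0 in ad libitum HFSCs (log2 fold change 1.75, adjusted p = 0.128), and Bmp2 had 24.8 and 12.9 TPM in telogen HFSCs and 3.74 and 3.77 TPM in ad libitum HFSCs (adjusted p = 0.056). Bmp4 stayed below the limit. The receptor Bmpr1a and its signal carrier Smad1 had log2 fold changes of 0.05 and -0.12.

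In the FGF pathway 5 of 17 tested members rose and 0 fell by limma on both scales (1 was lower at an unadjusted p under 0.05): Fgf18, Fgfbp1, Dusp5, Dusp6 and Spry1. Among all tested genes 2.73% were higher and 2.00% lower. The lower member was the ligand Fgf1, with 76.7 and 50.7 TPM in telogen HFSCs, against 216 and 110 TPM in ad libitum HFSCs (log2 fold change -1.29, adjusted p = 0.054). Limma called Fgf1 lower after the GC and length correction (adjusted p = 0.0217) and with ad libitum library 1 added (adjusted p = 0.0492). Fgfbp1 is a carrier that frees FGFs from the matrix, and had 186 and 192 TPM in telogen HFSCs, against 40.3 and 58.7 TPM in ad libitum HFSCs. Dusp6, the ERK phosphatase that acts as a feedback inhibitor of FGF signalling, had 396 and 156 TPM in telogen HFSCs, against 39.5 and 19.0 TPM in ad libitum HFSCs. Spry1, another feedback inhibitor, had 38.6 and 25.3 TPM in telogen HFSCs, against 11.6 and 4.42 TPM in ad libitum HFSCs (log2 fold change 1.97, adjusted p = 0.0422). The receptors did not pass, with log2 fold changes of -0.27 for Fgfr1, -0.25 for Fgfr2 and 0.82 for Fgfr3.

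In the EGF receptor pathway 2 of 12 tested members rose, the ligand Hbegf and the receptor inhibitor Errfi1. Hbegf had 368 and 322 TPM in telogen HFSCs, against 16 and 12.4 TPM in ad libitum HFSCs (log2 fold change 4.52 ± 0.34, adjusted p = 2.99e-07, median-ratio 4.96). Errfi1 had 367 and 193 TPM in telogen HFSCs, against 146 and 57.8 TPM in ad libitum HFSCs (log2 fold change 1.52). The receptor Egfr itself did not pass, with 47.0 and 22.9 TPM in telogen HFSCs and 39.3 and 38.5 TPM in ad libitum HFSCs. Of the TGF-beta and activin list, 2 of 25 rose, Thbs1 and Pmepa1, against 2.73% of all tested genes. Thbs1, which activates latent TGF-beta, had 273 and 42.9 TPM in telogen HFSCs, against 18.8 and 5.35 TPM in ad libitum HFSCs. Pmepa1, a target gene that limits the pathway, had 7.60 and 14.9 TPM in telogen HFSCs, against 0.234 and 0.0928 TPM in ad libitum HFSCs. It reached the limit of 1 TPM only through telogen HFSCs.

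Of the Wnt pathway, 3 of 41 tested members rose and 0 fell by limma (7 were lower at an unadjusted p under 0.05). They were 2 ligands and a receptor. Wnt11 had 126 and 78.1 TPM in telogen HFSCs, against 8.47 and 8.97 TPM in ad libitum HFSCs (log2 fold change 3.36 ± 0.42, adjusted p = 7.77e-05, median-ratio 3.79). Wnt4 had 24.2 and 19.2 TPM in telogen HFSCs, against 1.15 and 3.69 TPM in ad libitum HFSCs, and the receptor Fzd8 had 11.2 and 4.25 TPM in telogen HFSCs, against 0.305 and 0.455 TPM in ad libitum HFSCs. Fzd8 reached the limit of 1 TPM only through telogen HFSCs. Axin2 and Lef1, transcriptional read-outs of canonical Wnt signalling, did not pass. Axin2 had 2.52 and 3.13 TPM in telogen HFSCs and 11.5 and 10.4 TPM in ad libitum HFSCs (log2 fold change -1.65, adjusted p = 0.127). After the GC and length correction it was called lower (-1.82, adjusted p = 0.0383), and the list then held 4 higher and 2 lower. Lef1 had 4.22 and 4.33 TPM in telogen HFSCs and 13.6 and 10.6 TPM in ad libitum HFSCs (log2 fold change -1.31, adjusted p = 0.21). Neither gene's groups overlapped, but 40.9% of all tested genes had non-overlapping groups with telogen HFSCs lower. The secreted inhibitors Sfrp1, Dkk3 and Wif1 had log2 fold changes of -0.29, -0.23 and 0.79 and did not pass.

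Of the hedgehog list, 1 of 13 tested members rose, Gas1, a co-receptor of the ligand. It had 340 and 243 TPM in telogen HFSCs, against 95.3 and 74.3 TPM in ad libitum HFSCs (log2 fold change 1.76 ± 0.31, adjusted p = 0.0022, median-ratio 2.21). The pathway's target genes did not pass: Gli1 had 2.05 and 3.62 TPM in telogen HFSCs and 7.19 and 11.3 TPM in ad libitum HFSCs (adjusted p = 0.20), and Ptch1 had 1.95 and 1.03 TPM in telogen HFSCs and 2.64 and 4.59 TPM in ad libitum HFSCs. Shh was listed at 0 in all 4 libraries. Of the Notch list, 1 of 14 rose, the target gene Hes1, with 165 and 182 TPM in telogen HFSCs, against 39.9 and 52.5 TPM in ad libitum HFSCs. With 2.73% of all tested genes higher, 1 gene says little of the hedgehog or the Notch list. Of 24 tested hair germ and hair lineage genes 4 rose and 0 fell by limma (4 were lower at an unadjusted p under 0.05), namely Krt16, Gas1, Krt17 and Ovol1. Ovol1, a repressor that drives keratinocytes out of the cycle, had 94.3 and 42.3 TPM in telogen HFSCs, against 3.55 and 16.8 TPM in ad libitum HFSCs. Krt17 had 2400 and 2223 TPM in telogen HFSCs, against 1094 and 1027 TPM in ad libitum HFSCs, and did not pass after median-ratio scaling or the GC correction. Cdh3, the cadherin that marks the hair germ, had a log2 fold change of 0.24 (adjusted p = 0.79).

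A pair of CDK inhibitors rose. Cdkn1a, the p53 target p21, had 1558 and 1755 TPM in telogen HFSCs, against 184 and 215 TPM in ad libitum HFSCs (log2 fold change 3.05 ± 0.27, adjusted p = 2.11e-06, median-ratio 3.51). Cdkn1c, the inhibitor p57, had 63.9 and 49.9 TPM in telogen HFSCs, against 22.3 and 13.3 TPM in ad libitum HFSCs (log2 fold change 1.65, adjusted p = 0.0294), and lost its call after the GC correction and with ad libitum library 1 added. Btg1, which slows proliferation, had 556 and 272 TPM in telogen HFSCs, against 146 and 104 TPM in ad libitum HFSCs. Ccnd3, a D cyclin, had 159 and 160 TPM in telogen HFSCs, against 429 and 277 TPM in ad libitum HFSCs (log2 fold change -1.11), and did not pass after median-ratio scaling. Those were the 3 that rose and the 1 that fell of 16 tested. Of 42 tested genes of G1/S and replication 1 rose, the histone mRNA binder Slbp, and of 26 of G2/M and mitosis 1 rose, the kinase subunit Cks2, with 51.4 and 63.3 TPM in telogen HFSCs, against 25.1 and 14.4 TPM in ad libitum HFSCs. Those counts are near the 2.73% of all tested genes that were higher, and the medians of these lists were -0.38 and -0.25. Mki67, the marker of cycling cells, was below the 1 TPM limit, with 0.224 and 0.0766 TPM in telogen HFSCs and 2.10 and 0.00741 TPM in ad libitum HFSCs.

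The list of immediate early and dissociation-responsive genes held the most calls. These genes respond to growth factors and to stress, and tissue dissociation before sorting is known to switch many of them on. All 31 in the table were tested, and 17 rose and 0 fell by limma (24 were higher and 0 lower at an unadjusted p under 0.05), with a median log2 fold change of 1.55; by median-ratio scaling 20 rose. In 26 of the 31 both telogen libraries stood above both ad libitum libraries, against 12.3% of all tested genes. The members summed to 52370 and 40990 TPM in telogen HFSCs, against 20470 and 16920 TPM in ad libitum HFSCs. Jund, an AP-1 subunit, had 4847 and 5571 TPM in telogen HFSCs, against 574 and 358 TPM in ad libitum HFSCs (log2 fold change 3.52 ± 0.29, adjusted p = 9.52e-07, median-ratio 3.97). Ad libitum library 1 of the short experiment had 1777 TPM of Jund, above the other ad libitum libraries, and the call held with it added (log2 fold change 2.86). Atf3, a stress-responsive transcription factor, had 3324 and 3617 TPM in telogen HFSCs, against 624 and 551 TPM in ad libitum HFSCs. Nr4a1, an orphan nuclear receptor, had 2901 and 1754 TPM in telogen HFSCs, against 368 and 279 TPM in ad libitum HFSCs. Its relatives Nr4a2 and Nr4a3, with Klf2, Klf6, Klf10, Fosb, Egr1, Myc, Maff, Ier3, Ier5 and Gadd45b, rose as well, by log2 fold changes of 1.20 for Egr1 to 3.66 for Klf2, beside Fosl1 and Ccn1 above. Fos and Jun, the founding AP-1 subunits, did not pass. Fos had 10179 and 8968 TPM in telogen HFSCs and 5229 and 4584 TPM in ad libitum HFSCs (log2 fold change 0.96, adjusted p = 0.0572), and Jun had 2116 and 1606 TPM in telogen HFSCs and 1415 and 937 TPM in ad libitum HFSCs (log2 fold change 0.68).

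**Figure D3:**
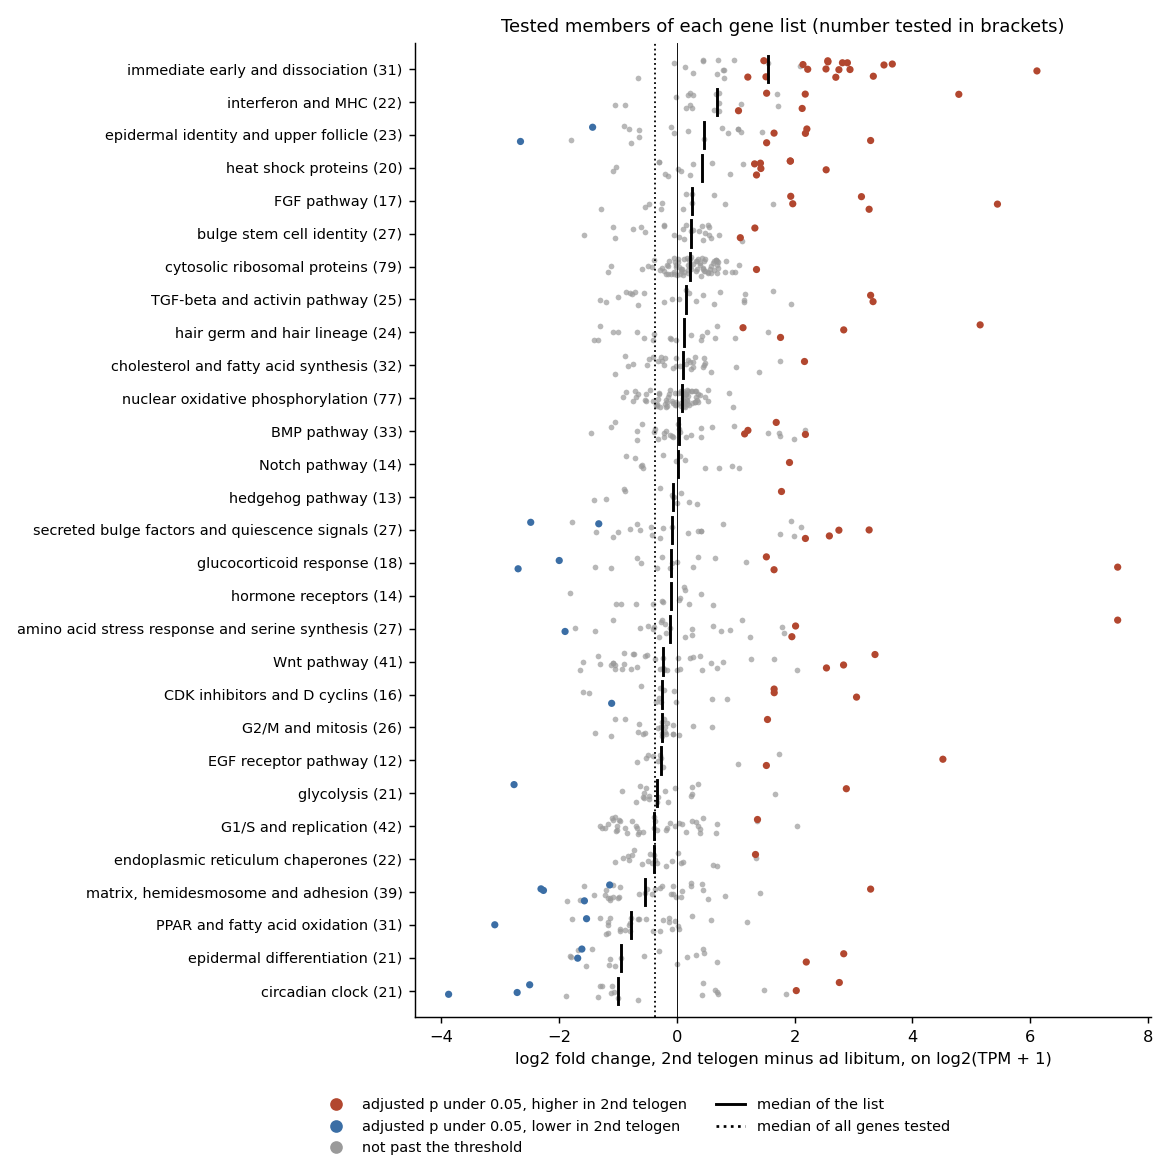
Log2 fold change, telogen minus ad libitum, of each tested member of the 29 gene lists, with lists ordered by their median. Each point is a gene, coloured where its adjusted p is under 0.05, and the dotted line marks the median of all genes, -0.37; the immediate early list stands furthest right with a median of 1.55 and the clock list furthest left with -1.0.

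Promoters of genes that rose were searched for the sites of factors that act on immediate early genes, in RefSeq windows of 300 bases, from 250 before to 50 after a gene's start, on both strands. Of the 17 immediate early genes that rose 13 had such a window. None held an AP-1 site (TGANTCA), which 8.98% of the 27018 genes with a window hold, and none held a CArG box, the site of serum response factor, which 1.81% hold. Maff, a small Maf factor with 33.7 and 33.0 TPM in telogen HFSCs, against 5.77 and 7.0 TPM in ad libitum HFSCs, held a cAMP response element (TGACGTCA), which 2.03% hold. E-boxes (CACGTG), sites of the clock that were also searched for, were held by Gadd45b, Klf6 and Maff of the 13, beside 8.09% of all genes with a window. A match or its absence describes these letters in this window and says nothing of binding. Of the 12 largest increases 8 had a window, of which Dusp5 held 2 CArG boxes end to end and Plaur an AP-1 site. Maff has 3 RefSeq windows, and the other two held none of the sites searched. The Maff and Dusp5 windows are shown because they hold such sites, in GRCm38.p6 and 5′ to 3′ on the gene's strand, at chr15:79347270-79347569 (plus) for Maff and chr19:53528895-53529194 (plus) for Dusp5. Capitals mark an E-box (CACGTG), 191 bases before the start, and the cAMP response element, 29 before it, in Maff, and the CArG boxes, 82 and 72 bases before the start, in Dusp5.
Maff: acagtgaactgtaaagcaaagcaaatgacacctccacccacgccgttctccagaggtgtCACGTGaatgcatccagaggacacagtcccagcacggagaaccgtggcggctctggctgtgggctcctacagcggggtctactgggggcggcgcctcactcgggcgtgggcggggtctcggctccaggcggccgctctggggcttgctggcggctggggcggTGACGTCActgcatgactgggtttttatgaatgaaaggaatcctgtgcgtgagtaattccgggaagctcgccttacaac
Dusp5: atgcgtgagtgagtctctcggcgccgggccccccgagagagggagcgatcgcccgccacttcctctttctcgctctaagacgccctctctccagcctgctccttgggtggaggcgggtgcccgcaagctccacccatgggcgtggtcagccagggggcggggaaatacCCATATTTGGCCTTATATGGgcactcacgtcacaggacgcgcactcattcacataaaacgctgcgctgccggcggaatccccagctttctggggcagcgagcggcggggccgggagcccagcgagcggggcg

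Heat shock proteins rose in part. Of 20 tested, 7 rose and 0 fell by limma (1 was lower at an unadjusted p under 0.05), with a median of 0.43, and their summed level was 20230 and 16410 TPM in telogen HFSCs, against 8668 and 8428 TPM in ad libitum HFSCs. Hspa1b, a stress-inducible chaperone, had 357 and 146 TPM in telogen HFSCs, against 40.7 and 36.5 TPM in ad libitum HFSCs, and its near-identical copy Hspa1a had 1069 and 523 TPM in telogen HFSCs, against 200 and 192 TPM in ad libitum HFSCs. How reads were split between these copies is uncertain. Hspb1, a small heat shock protein, had 9479 and 9480.1 TPM in telogen HFSCs, against 3602 and 3827 TPM in ad libitum HFSCs (log2 fold change 1.35), and did not pass after median-ratio scaling or the GC correction. Dnaja1, Dnajb1, Hsp90aa1 and Hspa5 also rose, by log2 fold changes of 1.93, 1.42, 1.43 and 1.32. The constitutive Hspa8 did not pass, with 2548 and 1508 TPM in telogen HFSCs and 1307 and 1297 TPM in ad libitum HFSCs. Handling of the tissue is not described in the sources used here, and its part in the immediate early and heat shock values was not tested.

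The high levels of several of these genes were shared by other libraries of the study, which were set beside them without a test because they sit in other tables. Cebpb had 951 and 796 TPM in telogen HFSCs and 177 and 857 TPM in HFSCs of mice fed ad libitum for 6 months, and EpiSCs of the short experiment had 404 and 446 TPM. Ad libitum library 1 of the short experiment, which is not in the table tested, had 3.68 TPM. Fosl1 had 961 and 822 TPM in the long-term HFSCs and 329 and 408 TPM in EpiSCs, against 6.45 TPM in ad libitum library 1. For Hbegf those values were 366 and 488 TPM, 167 and 134 TPM, and 16.2 TPM. For these 3 genes the long-term HFSCs and the EpiSCs all lay above the short-experiment HFSCs, though 1 long-term library for Cebpb and both EpiSC libraries for each gene lay below telogen HFSCs. Of the other large increases, Dusp5, Krt16 and Irf1 were also high in EpiSCs, with 83.4 and 180, 153 and 232, and 105 and 143 TPM there. Adm, C2cd4b, Siah2 and Plk3 also stood higher in EpiSCs than in the short-experiment HFSCs. The increases in Plaur, Ccl2 and Dock10 did not extend to EpiSCs. Plaur had 114 and 148 TPM in long-term HFSCs, 0.544 and 0.472 TPM in EpiSCs and 2.62 TPM in ad libitum library 1, and Ccl2 had 185 and 214 TPM in long-term HFSCs, 0.649 and 1.16 TPM in EpiSCs and 6.64 TPM in ad libitum library 1. The immediate early list summed to 69100 and 50740 TPM in the long-term HFSCs, 49890 and 60320 TPM in EpiSCs and 25100 TPM in ad libitum library 1. Fgf18 followed the HFSC part of this order only, with 37.5 and 32.0 TPM in long-term HFSCs, 0.119 TPM and a listed 0 in EpiSCs and 3.61 TPM in ad libitum library 1. Gadd45b and Ier3 were higher in telogen HFSCs than in any other of these libraries, with 520 and 354 TPM of Gadd45b in telogen HFSCs, 208 and 194 TPM in long-term HFSCs and 64.7 and 66.3 TPM in EpiSCs.

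**Figure D4:**
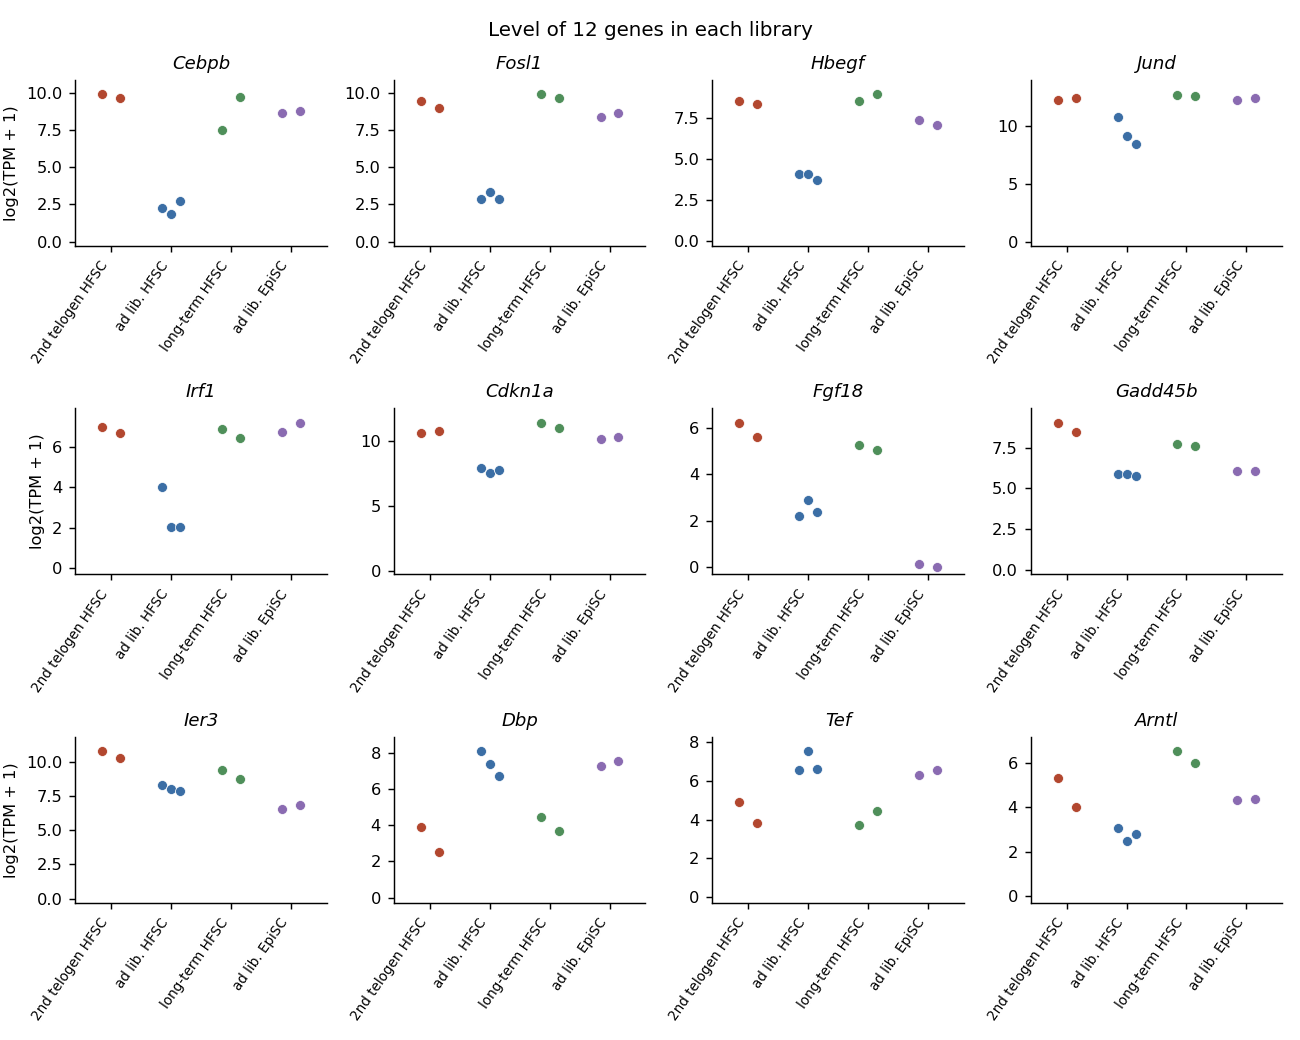
Level, as log2(TPM + 1), of 12 named genes in 2nd telogen HFSCs, ad libitum HFSCs of the short experiment (3 libraries), ad libitum HFSCs of the long-term experiment and ad libitum EpiSCs; each point is a library. Of the libraries drawn, the short-experiment HFSCs have the lowest Cebpb, Fosl1, Hbegf, Irf1 and Cdkn1a, and telogen and long-term HFSCs have the lowest Dbp and Tef.

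Clock genes moved in both directions. The circadian clock runs on the activators Arntl and Clock, which act through E-boxes, the repressors of the Per and Cry families, and output factors such as Dbp and Tef, which act through D-boxes. All 21 listed genes were tested, and 2 rose and 3 fell, with a median of -1.0; by median-ratio scaling 3 rose and 3 fell. Of the outputs, Dbp fell as given above, and Tef fell to 29.0 and 13.3 TPM in telogen HFSCs, against 184 and 98.5 TPM in ad libitum HFSCs (log2 fold change -2.71 ± 0.43, adjusted p = 0.000734, median-ratio -2.27). Per3 fell to 0.451 and 1.08 TPM in telogen HFSCs, against 11.4 and 6.80 TPM in ad libitum HFSCs. Its mean in telogen HFSCs was 0.766 TPM, so it reached the limit of 1 TPM only through ad libitum HFSCs. Of the activators, Arntl had 39.0 and 15.2 TPM in telogen HFSCs, against 4.52 and 6.06 TPM in ad libitum HFSCs (log2 fold change 2.03 ± 0.57, adjusted p = 0.0485, median-ratio 2.43). Bhlhe40, an E-box repressor, had 47.6 and 19.4 TPM in telogen HFSCs, against 3.19 and 4.18 TPM in ad libitum HFSCs. The other 16 did not pass, among them Per1, with 6.35 and 6.40 TPM in telogen HFSCs and 16 and 13.9 TPM in ad libitum HFSCs, and Nr1d1, with 23.9 and 10.7 TPM in telogen HFSCs and 38.6 and 31.5 TPM in ad libitum HFSCs. The time of day at which each group was collected is not given in the sources used here, and its part was not tested. In the other tables Dbp had 21.1 and 11.9 TPM in long-term HFSCs, 157 and 187 TPM in EpiSCs and 273 TPM in ad libitum library 1.

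**Figure D5:**
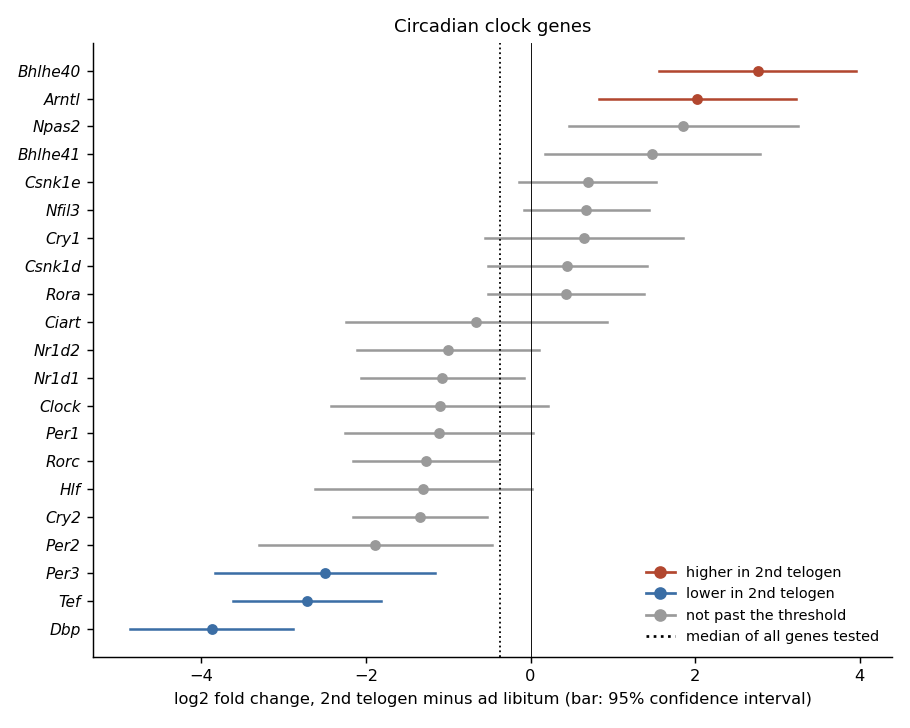
Log2 fold change, telogen minus ad libitum, of the 21 clock genes with its 95% confidence interval from the moderated fit. Genes past the threshold are coloured; Bhlhe40 and Arntl are higher in telogen HFSCs, Dbp, Tef and Per3 are lower, and the dotted line is the median of all genes, -0.37.

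Promoters of the clock genes that passed were searched in the same way for the sites of the clock, E-boxes and D-boxes. Of the 2 that rose 1 had a window, with neither site, and each of the 3 that fell had at least 1. An E-box (CACGTG) is held by 8.09% of all genes with a window and a D-box (TTANGTAA) by 2.72%. Dbp held neither. Per3 held 2 D-boxes, 205 and 158 bases before its start, and Tef held an E-box in each of its 2 RefSeq windows, 138 bases before the start in the one shown. Windows are from GRCm38.p6, 5′ to 3′ on the gene's strand, at chr4:151044616-151044915 (minus) for Per3 and chr15:81811164-81811463 (plus) for Tef, with the sites in capitals.
Per3: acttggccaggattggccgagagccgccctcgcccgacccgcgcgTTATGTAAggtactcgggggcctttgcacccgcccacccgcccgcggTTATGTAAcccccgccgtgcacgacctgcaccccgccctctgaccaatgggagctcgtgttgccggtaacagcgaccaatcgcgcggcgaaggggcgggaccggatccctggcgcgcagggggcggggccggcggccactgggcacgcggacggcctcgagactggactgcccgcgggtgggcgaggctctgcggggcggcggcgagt
Tef: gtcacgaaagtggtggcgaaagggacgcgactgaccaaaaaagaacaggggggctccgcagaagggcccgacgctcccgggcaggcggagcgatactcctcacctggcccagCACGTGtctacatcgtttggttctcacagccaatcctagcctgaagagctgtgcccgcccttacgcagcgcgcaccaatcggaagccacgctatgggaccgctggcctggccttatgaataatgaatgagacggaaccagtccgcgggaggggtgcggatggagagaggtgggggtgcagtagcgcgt

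Among metabolic genes, Slc2a1 and Sqle rose and Pfkfb3 and Acot1 fell. Nuclear genes of oxidative phosphorylation had 0 of 77 past the threshold by limma, in either direction (2 were higher and 4 lower at an unadjusted p under 0.05), and 1 higher after median-ratio scaling. Of 79 cytosolic ribosomal proteins 1 rose, against 2.73% of all tested genes, and 15 were higher and 3 lower at an unadjusted p under 0.05. It was Rps25, with 2011 and 3538 TPM in telogen HFSCs, against 1119 and 977 TPM in ad libitum HFSCs, and it did not pass after median-ratio scaling. In 27 of the 79 both telogen libraries stood above both ad libitum libraries, and in 7 below, against 12.3% and 40.9% of all tested genes. The list summed to 77260 and 123800 TPM in telogen HFSCs, against 75020 and 77740 TPM in ad libitum HFSCs, so the telogen libraries stood far apart. In glycolysis Slc2a1, the basal glucose transporter, rose to 219 and 108 TPM in telogen HFSCs, against 21.2 and 19.1 TPM in ad libitum HFSCs (log2 fold change 2.88, median-ratio 3.32), and Pfkfb3 fell as above. The other 19 of 21 did not pass. In the list of PPAR targets and fatty acid oxidation 0 of 31 rose by limma, also at an unadjusted p under 0.05, and 2 fell (10 at an unadjusted p under 0.05), with a median of -0.78 beside -0.37 for all genes (-0.34 beside 0.03 after median-ratio scaling). Of all 11909 tested genes 2490 had an unadjusted p under 0.05, in either direction. In 18 of the 31 both telogen libraries stood below both ad libitum libraries, against 40.9% of all tested genes. Among these was the acyl-CoA thioesterase Acot1, which had 84.6 and 53.5 TPM in telogen HFSCs, against 184 and 211 TPM in ad libitum HFSCs, and passed on the first scale alone. Sqle, a rate-setting enzyme of cholesterol synthesis, was the 1 of 32 genes of lipid synthesis that rose, with 70.4 and 22.4 TPM in telogen HFSCs, against 4.80 and 13.5 TPM in ad libitum HFSCs.

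Stress and hormone response genes split. Of 18 tested glucocorticoid response genes 3 rose (Cebpb, Mt2 and Errfi1) and 2 fell, against 2.73% and 2.00% of all tested genes. Tsc22d3, the glucocorticoid-induced leucine zipper, fell to 230 and 195 TPM in telogen HFSCs, against 1024 and 706 TPM in ad libitum HFSCs (log2 fold change -2.0 ± 0.29, adjusted p = 0.000331, median-ratio -1.54). Sult1a1, a sulfotransferase, fell to 0.460 and 1.03 TPM in telogen HFSCs, against 10.6 and 9.74 TPM in ad libitum HFSCs. Its mean in telogen HFSCs was 0.745 TPM, so it reached the limit of 1 TPM only through ad libitum HFSCs. Mt2, a metal-binding metallothionein, had 3004 and 2779 TPM in telogen HFSCs, against 998 and 848 TPM in ad libitum HFSCs. Of 27 tested genes of the amino acid stress response and serine synthesis 3 rose and 1 fell. Atf4, its transcription factor, had 379 and 341 TPM in telogen HFSCs, against 111 and 76.1 TPM in ad libitum HFSCs, and its target Ddit3 had 231 and 246 TPM in telogen HFSCs, against 64.2 and 52.8 TPM in ad libitum HFSCs. Both rose on both scales, by log2 fold changes of 1.95 and 2.02. The third was Cebpb, and Shmt1, the cytosolic enzyme that interconverts serine and glycine, fell. Of the endoplasmic reticulum chaperones 1 of 22 rose, Hspa5, against 2.73% of all tested genes. None of 14 tested hormone receptors passed by limma on either scale, and 1 was lower at an unadjusted p under 0.05; the prolactin receptor Prlr, whose ligand prolongs rest in the follicle, had 91.1 and 55.1 TPM in telogen HFSCs and 83.8 and 83.8 TPM in ad libitum HFSCs.

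Interferon and antigen presentation genes rose in 5 of 22 tested members, with 0 that fell by limma, also at an unadjusted p under 0.05, and a median of 0.69. Irf1 is given above. Psmb8, a subunit of the immunoproteasome, had 38.3 and 52.1 TPM in telogen HFSCs, against 10.5 and 8.47 TPM in ad libitum HFSCs. Cd74, the chaperone of MHC class II, had 35.6 and 34.9 TPM in telogen HFSCs, against 8.35 and 5.83 TPM in ad libitum HFSCs. Ifitm3, an antiviral membrane protein, and H2-K1, an MHC class I chain, rose by log2 fold changes of 1.52 and 1.05, and H2-K1 lost its call after the GC correction. Of the leukocyte markers 1 of 3 tested rose, Lyz2, with 4.91 and 5.32 TPM in telogen HFSCs, against 0.0837 TPM and a listed 0 in ad libitum HFSCs. Lyz2 reached the limit of 1 TPM only through telogen HFSCs, and 10 of the 13 listed markers stayed below it. The 13 markers summed to 17.9 and 21.9 TPM in telogen HFSCs, against 11.1 and 14.9 TPM in ad libitum HFSCs. Ptprc, which defines leukocytes, was listed at 0 in all 4 libraries.

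Genes of the epidermis and upper follicle changed in 7 of 23 tested members, 5 higher and 2 lower. Plet1, a marker of the upper follicle, had 322 and 207 TPM in telogen HFSCs, against 43.4 and 70.2 TPM in ad libitum HFSCs. Thbs1, Fst, Mt2 and Ifitm3 were the others that rose. Trp63, the master regulator of stratified epithelium, had 202 and 79.2 TPM in telogen HFSCs, against 359 and 327 TPM in ad libitum HFSCs (log2 fold change -1.43), and did not pass after median-ratio scaling. Krt77, a type II keratin, fell to 14.7 and 5.31 TPM in telogen HFSCs, against 40.5 and 93.6 TPM in ad libitum HFSCs. In epidermal differentiation 2 of 21 rose and 2 fell, with a median of -0.96, and the 2 that fell did not pass after median-ratio scaling. They were Krt10, the keratin of the first layer above the basal cells, with 58.2 and 82.1 TPM in telogen HFSCs, against 179 and 281 TPM in ad libitum HFSCs, and Krtdap, with 581 and 737 TPM in telogen HFSCs, against 1098 and 3656 TPM in ad libitum HFSCs. Sprr1a, a cornified envelope protein also made in stressed epidermis, had 78.0 and 88.1 TPM in telogen HFSCs, against 9.68 and 30.3 TPM in ad libitum HFSCs, and Ovol1 was the other that rose.

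Of 39 tested genes of matrix, hemidesmosome and adhesion 1 rose, Thbs1, and 4 fell, with a median of -0.54. Col7a1, the collagen of anchoring fibrils, fell to 30.1 and 14.4 TPM in telogen HFSCs, against 117 and 93.0 TPM in ad libitum HFSCs (log2 fold change -2.27 ± 0.41, adjusted p = 0.00229, median-ratio -1.82). Lama5, a laminin chain of the follicle's basement membrane, fell to 7.46 and 3.87 TPM in telogen HFSCs, against 25.6 and 36.9 TPM in ad libitum HFSCs. Both passed on both scales. The hemidesmosome linker Dst and the matrix glycoprotein Sparc, with log2 fold changes of -1.57 and -1.14, passed on the first scale alone. Postn, a matrix protein of the bulge niche, had 1754 and 404 TPM in telogen HFSCs and 2835 and 2232 TPM in ad libitum HFSCs and did not pass (adjusted p = 0.052).

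Markers of red and muscle cells also moved with the groups. Of 6 erythroid markers 3 were tested and 2 rose, Hba-a2, with 56.0 and 80.4 TPM in telogen HFSCs, against 2.84 and 26.7 TPM in ad libitum HFSCs, and Hbb-bs, with 17.7 and 36.1 TPM in telogen HFSCs, against 0.288 and 2.20 TPM in ad libitum HFSCs. The list summed to 95.5 and 169 TPM in telogen HFSCs, against 7.05 and 51.0 TPM in ad libitum HFSCs. The globin genes have near-identical copies, so their split is uncertain. Cnn1, 1 of 3 tested muscle markers, had 31.9 and 9.76 TPM in telogen HFSCs, against 0.119 and 3.13 TPM in ad libitum HFSCs, and the list summed to 38.0 and 11 TPM in telogen HFSCs, against 3.49 and 4.68 TPM in ad libitum HFSCs, with Myh11 and Des listed at 0 in all 4. No fibroblast, melanocyte, sebocyte, Schwann or Merkel marker passed by limma on the first scale, with 2 fibroblast and 1 sebocyte marker higher at an unadjusted p under 0.05. After median-ratio scaling 1 fibroblast and 1 sebocyte marker were called higher, and the same counts held with ad libitum library 1 added. After the GC and length correction 1 fibroblast marker was called higher. Fibroblast markers summed to 44.7 and 39.9 TPM in telogen HFSCs, against 24.0 and 34.3 TPM in ad libitum HFSCs. Sebocyte markers summed to 176.5 and 181 TPM in telogen HFSCs, against 89.1 and 110 TPM in ad libitum HFSCs. The part of such cells in the results was not tested.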

How the data were processed

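Per the labels' protocols, RNA was column-purified and libraries were made by full-length amplification of mRNA and a transposase kit. Gene-level TPM values were made and deposited by the authors; the submitters' processing notes name Salmon 1.4.0, DESeq2 1.36.0 and mm10 for both groups, with Trimmomatic 0.39 for the telogen libraries and fastp 0.23.1 for the ad libitum libraries, without roles. TPM keeps no read depth, so counting error is unknown here. From the deposited TPM, symbols starting with mt- were removed, each column was rescaled to 1000000, and genes with a mean of 1 TPM or more over 4 columns were tested on log2(TPM + 1), a pseudocount of 1, in R 4.3.3 with limma 3.58.1 (trend, 2 libraries against 2, two-sided, Benjamini-Hochberg over 11909 genes, threshold 0.05; 2 residual and 15.5 prior degrees of freedom). Fold changes understate the change of low genes on this scale. The script was tested on simulated data. Alternatives were other pseudocounts, limits, scalings, moderation, left-out libraries, an added ad libitum library and a replicate block. Correction for GC content and length, and protein-coding genes only, were added after seeing the data. Gene positions, GC content and length are from GENCODE M21 (GRCm38), promoters from RefSeq (GRCm38.p6). Named genes are the 12 largest calls each way with non-overlapping groups and 20 TPM or more in the higher group, without predicted or ribosomal symbols; up to 4 calls each way and the 3 most abundant other members of each of 29 lists; and a fixed set of hair cycle genes. Further list members are named where a count needed them, after their values were seen. A gene among the 12 largest decreases is not reported here. The members, lists and rule were chosen with earlier results of these data known. Fasted, long-term fasted and other libraries were not analysed here beyond the levels printed.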

Additional observations from a re-analysis of the deposited data

How the results depend on the processing

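Against 325 genes higher and 238 lower in telogen HFSCs, and 69 and 20 of the 759 tested list members, limma's counts moved by over 1.5 times as follows. Median-ratio scaling gave 611 higher, and 12 list members lower. With mt- symbols kept it gave 582 higher and 127 lower, and 119 list members higher. Quantile normalization gave 536 higher, and a pseudocount of 0.1 gave 152 lower. Without the mean-variance trend 138 were higher and 54 lower, with 21 and 4 list members. Without a limit on low values all 4 counts were 0, with 2583 genes at an unadjusted p under 0.05. The GC and length correction, added after seeing the data, gave 423 lower and 37 list members lower. Leaving out one library gave 0 to 196 higher and 0 to 173 lower, and 0 to 40 and 0 to 14 list members; the 0 counts came with either telogen library left out, with 2923 and 1502 genes at an unadjusted p under 0.05, and a lone library was assumed to vary like the others. The replicate block on the column numbers gave 625 higher and 1139 lower, with 106 and 63 list members. Numbers did not pair the libraries by the labels, and deviations of same-numbered libraries correlated at 0.096 over 2 pairs. Of the 89 genes chosen by the naming rule that passed, none changed direction under any of these settings; 74 passed after median-ratio scaling, 85 after the GC and length correction, 87 with ad libitum library 1 added, 28 without the trend, 49 and 55 without one or the other ad libitum library, and 0 without either telogen library. The cause of these movements was not tested. Depth is unknown from TPM. Of the named genes that passed, Krt23 and Cyp27a1 had the widest standard errors of the log2 fold change, 0.78 and 0.73.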

Other observations

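Outside the gene lists, several abundant genes moved as well; they were picked after their values were seen. Sfn, the 14-3-3 protein of keratinocytes and a p53 target, had 5016 and 4527 TPM in telogen HFSCs, against 796 and 693 TPM in ad libitum HFSCs. Nfkbia, the inhibitor and feedback target of NF-kappa-B, had 2699 and 2871 TPM in telogen HFSCs, against 882 and 677 TPM in ad libitum HFSCs. Tnfrsf12a, the receptor for the cytokine TWEAK, had 1192 and 984 TPM in telogen HFSCs, against 45.5 and 53.6 TPM in ad libitum HFSCs (log2 fold change 4.43 ± 0.29, adjusted p = 4.51e-08, median-ratio 4.88). Ppp1r15a, which restores translation after stress, had 913 and 723 TPM in telogen HFSCs, against 243 and 261 TPM in ad libitum HFSCs. Each of these 4 passed limma's test on both scales. Among genes that fell on both scales, the related arrestins Txnip and Arrdc3 restrain glucose uptake and receptor signalling. Txnip had 106 and 84.9 TPM in telogen HFSCs, against 475 and 249 TPM in ad libitum HFSCs, and Arrdc3 had 33.1 and 17.2 TPM in telogen HFSCs, against 127 and 62.9 TPM in ad libitum HFSCs. Agrn, the basement membrane proteoglycan agrin, had 35.3 and 23.7 TPM in telogen HFSCs, against 117 and 99.97 TPM in ad libitum HFSCs.

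Some of the sharpest differences lay in near-identical gene copies, where the split of reads is uncertain. Of 446 tested pseudogenes 33 were higher and 39 lower. Gm13306 had 10624 and 17172 TPM in telogen HFSCs, against 152 and 3.30 TPM in ad libitum HFSCs, whereas Ccl27b had 3567 and 14867 TPM in telogen HFSCs and 5904 and 7364 TPM in ad libitum HFSCs. Rps12-ps3 had 230 and 220 TPM in telogen HFSCs and was listed at 0 in both ad libitum libraries, yet had 108 TPM in ad libitum library 1. These values are uncertain and are not read as changes in expression.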
